A study of Mus musculus with 37 samples.

Results

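Gene expression was compared between tailbuds of embryos that lacked maternal SMCHD1 and of control embryos when both had 6 somites. Somites are the paired blocks of mesoderm that bud off the presomitic mesoderm, and their number dates an embryo. The comparison takes all libraries labelled with this stage and no others, which are 4 Smchd1matΔ (mat del in the labels) and 4 Smchd1wt embryos of the 37 embryos in the series, with 1 RNA-seq library each. All 8 were female. The other 29 embryos, with 7 to 11 somites, were used here only to measure the same genes again (17 Smchd1wt and 12 Smchd1matΔ, 16 females and 13 males).

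Both groups were F1 embryos of C57BL/6 mothers and Castaneus fathers carrying wild-type Smchd1, at about embryonic day 8 to 8.5. Smchd1wt embryos were Smchd1 fl/+, from Smchd1 fl/fl mothers without the Cre transgene. Smchd1matΔ embryos were Smchd1 del/+, from Smchd1 del/fl mothers in which MMTV-Cre, a transgene driven by the mouse mammary tumour virus promoter, deleted the gene in the oocyte. Embryos of the second kind therefore lacked both the SMCHD1 stored in the oocyte and the maternal copy of the gene, and loss of the maternal supply and heterozygosity cannot be told apart in this comparison. The mothers also differed in the presence of the transgene. The tissue was cut behind the last segmented somite and frozen, so each library holds all cells of the dissected piece, and fewer cells of a type cannot be told apart from less RNA per cell.

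SMCHD1 is a chromatin protein of the structural maintenance of chromosomes family that helps to silence the inactive X chromosome, imprinted genes and clustered gene families. The tailbud holds progenitors that give rise to spinal cord and to presomitic mesoderm under Wnt and FGF signals, and the presomitic mesoderm is cut into somites by a Notch-driven clock. Hox genes are switched on in these cells in the order of their position along each cluster, beginning with low paralogue numbers, and give vertebrae their identity. Whether oocyte SMCHD1 sets the timing of that programme is the question behind the comparison, and 6 somites is the earliest stage in the series.

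Libraries held 13123787, 7609278, 11959774 and 8256075 counts in Smchd1wt embryos 1 to 4 and 6868952, 14335093, 916444 and 21082220 counts in Smchd1matΔ embryos 1 to 4. Smchd1matΔ 3 is therefore the shallowest library of the series. Smchd1matΔ 1 and 2 stood apart in another way. The transcript Gm42418, which lies in a ribosomal RNA repeat, together with its neighbour CT010467.1 took 2.77% and 1.82% of their counts, against 0.704% and 0.673% in Smchd1matΔ 3 and 4 and 0.418% to 0.680% in Smchd1wt embryos. The labels name no batch. Tailbud markers were found in all 8 libraries. T, the Brachyury factor of the primitive streak, lay between 167 and 275 CPM (counts scaled to a common library size), Cdx2 between 290 and 426, and Msgn1, a factor of the presomitic mesoderm, between 37.4 and 62.1. The cardiac factor Nkx2-5 (at most 0.139 CPM), the germ cell factor Nanos3 (at most 1.23 CPM) and the trophoblast marker Tpbpa (at most 1.30 CPM) were near 0. Other markers of these tissues were higher, so they were not shown to be absent. The trophoblast marker Prl3d1 reached 26.5 CPM in Smchd1matΔ 1 and 17.9 CPM in Smchd1wt 1. Summed marker lists ran from 40.4 to 278 CPM (trophoblast), 120 to 232 CPM (germ cell and pluripotency) and 1.09 to 19.1 CPM (cardiac). Because 3 of the 4 Smchd1matΔ libraries stood apart in depth or ribosomal counts, results are given with and without them.

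Smchd1 itself (chromosome 17, from 71344489 to 71475343, GRCm38) is deleted in the maternal allele, and was measured first as a check of the labels. It stood at 168, 135, 134 and 104 CPM in Smchd1wt embryos 1 to 4 and at 93.0, 112, 72.0 and 83.0 CPM in Smchd1matΔ embryos 1 to 4. Means were 135 ± 26.5 and 89.98 ± 16.9 CPM (SD, n = 4 each). Smchd1matΔ 2 was above the lowest Smchd1wt embryo, so the groups overlapped, and the other 3 Smchd1matΔ embryos were below all controls. The log2 fold change (Smchd1matΔ over Smchd1wt) was -0.56 (SE 0.15), with an unadjusted p of 0.00267 and an adjusted p of 0.862 in edgeR's quasi-likelihood test over all genes. An exact permutation test of log2 CPM gave p = 0.0571 (two-sided; the smallest p that 4 against 4 embryos allow is 0.0286). Without Smchd1matΔ 1 and 2 the log2 fold change was -0.78. In the 29 older embryos Smchd1 fell by 0.79 on the log2 scale (adjusted p = 2.58e-06, edgeR quasi-likelihood test), and the difference between the ages had an unadjusted p of 0.267. The Castaneus allele and reads from any remaining part of the deleted allele are both counted in these values.

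No gene passed an adjusted p of 0.05 between genotypes at 6 somites. Of 14191 genes tested, edgeR's quasi-likelihood test gave an unadjusted p under 0.05 for 428 genes with higher levels in Smchd1matΔ embryos (3.02% of those tested) and for 358 with lower levels (2.52%), or 5.54% in all. DESeq2, limma with voom sample weights and edgeR's exact test also left 0 genes after adjustment, with 852, 1017 and 802 genes at an unadjusted p under 0.05. All values of 1 genotype lay above the other for 224 genes (1.58% of those tested) and below for 270 (1.9%). The median log2 fold change over all genes was 0.0056, and 51% of genes were positive.

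The set of genes at an unadjusted p under 0.05 depended on which embryos were in the fit. Without Smchd1matΔ 1 and 2, 361 of 14819 genes tested (2.44%) were in it, and 0 passed adjustment (185 higher, 1.25%, and 176 lower, 1.19%). Of these, 140 were also in the set of 786 from all 8 embryos with the same direction, which is 17.8% of the larger and 38.8% of the smaller set. Without the shallow Smchd1matΔ 3 the set grew to 1567 of 14863 genes (10.5%), again with 0 past adjustment (820 higher, 5.52%, and 747 lower, 5.03%), and 664 of the 786 genes were in it. Smchd1matΔ 4 alone against the controls left 304 of 16002 genes (158 higher, 0.987%, and 146 lower, 0.912%, or 1.9% in all). It gave 1 adjusted call (0.00625%), the globin gene Hbb-bh1. There the single Smchd1matΔ embryo is assumed to vary like the controls.

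The 12 genes with the smallest p among those whose Smchd1matΔ values all lay above the controls and whose mean level was at least 5 CPM included regulators of signalling and transcription. They were chosen by this contrast, so their values at 6 somites describe them and test nothing further. Ski, a co-repressor of TGF-beta and BMP signalling, led them with 81.6, 81.2, 89.5 and 87.2 CPM in Smchd1wt embryos and 117, 126, 104 and 119 CPM in Smchd1matΔ embryos. All 4 Smchd1matΔ embryos exceeded the highest control, by a little in Smchd1matΔ 3 and by more in the rest. Its log2 fold change was 0.47 (SE 0.10, unadjusted p = 0.000374, adjusted p = 0.862 in edgeR).

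A homeobox and a forkhead gene were among the 12. Pbx3, a homeodomain partner of HOX proteins, stood at 20.6, 24.2, 21.3 and 21.9 CPM in controls and 45.7, 32.8, 50.2 and 25.3 CPM in Smchd1matΔ embryos. The controls were tight and Smchd1matΔ 1 and 3 were furthest above them, while Smchd1matΔ 4 was barely above. Foxp4, a forkhead repressor, ranged from 22.2 to 32.0 CPM in controls and from 33.5 to 43.6 CPM in Smchd1matΔ embryos.

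Metrn, which encodes the secreted neurotrophic factor meteorin, ranged from 27.8 to 39.6 CPM in controls. It was at 81.2, 49.8, 48.0 and 45.9 CPM in Smchd1matΔ embryos, highest in Smchd1matΔ 1. Lrwd1, a partner of the origin recognition complex, ranged from 44.3 to 52.7 CPM in controls and was at 88.7, 71.7, 58.9 and 61.7 CPM in Smchd1matΔ embryos. Zbtb45, a zinc finger repressor, ranged from 7.13 to 10.9 and from 13.8 to 23.0 CPM. Others were the mitochondrial protein gene Chchd2, the alanyl-tRNA synthetase gene Aars, the ubiquitin ligase gene Hectd4 and the nucleotide hydrolase gene Hint1. Log2 fold changes of the genes named here ran from 0.36 to 0.87. Smchd1matΔ 1 was the highest embryo for Metrn, Lrwd1, Zbtb45 and these last 4 genes.

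The 12 genes with lower levels in all Smchd1matΔ embryos included several regulators of RNA and protein turnover. Cnot6l, a deadenylase of the CCR4-NOT complex, stood at 36.2, 49.6, 41.6 and 42.2 CPM in controls and 19.5, 14.4, 26.2 and 33.8 CPM in Smchd1matΔ embryos. Smchd1matΔ 1 and 2 were well under the controls and Smchd1matΔ 4 was close to the lowest of them. Cnot6l had a log2 fold change of -0.87 (SE 0.23), the largest in this direction. Msi2, an RNA-binding protein of progenitor cells, stood at 204, 293, 250 and 266 CPM in controls and 162, 174, 200 and 202 CPM in Smchd1matΔ embryos, with Smchd1wt 1 only just above Smchd1matΔ 4. Gatad2b, a subunit of the NuRD chromatin remodelling complex, stood at 73.0, 65.3, 66.0 and 65.3 CPM and at 44.1, 44.2, 37.1 and 58.9 CPM. All Smchd1matΔ embryos were below the controls, and Smchd1matΔ 4 lay nearest to them.

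Sec62 and Alg6 act in protein handling at the endoplasmic reticulum. Sec62, part of the protein import channel, ranged from 144 to 172 CPM in controls and from 117 to 128 CPM in Smchd1matΔ embryos. Alg6, a glucosyltransferase of N-glycosylation, ranged from 28.7 to 43.3 and from 19.4 to 24.7 CPM. Bnip3l, a receptor for the removal of mitochondria, ranged from 251 to 283 and from 195 to 224 CPM. Pwwp3b was the only X-linked gene of the 24, at 110, 121, 114 and 122 CPM in controls and 104, 84.0, 76.4 and 87.2 CPM in Smchd1matΔ embryos. Here Smchd1matΔ 1 was near the controls and the other 3 were lower. The rest were Pcmtd2, the ubiquitin ligase receptor gene Fem1c, the phosphatase gene Ptpn12, Tmem123 and the microtubule adaptor gene Hook3. Log2 fold changes of the 12 ran from -0.87 to -0.34, and all 24 genes shared the adjusted p of 0.862.

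**Figure D1:**
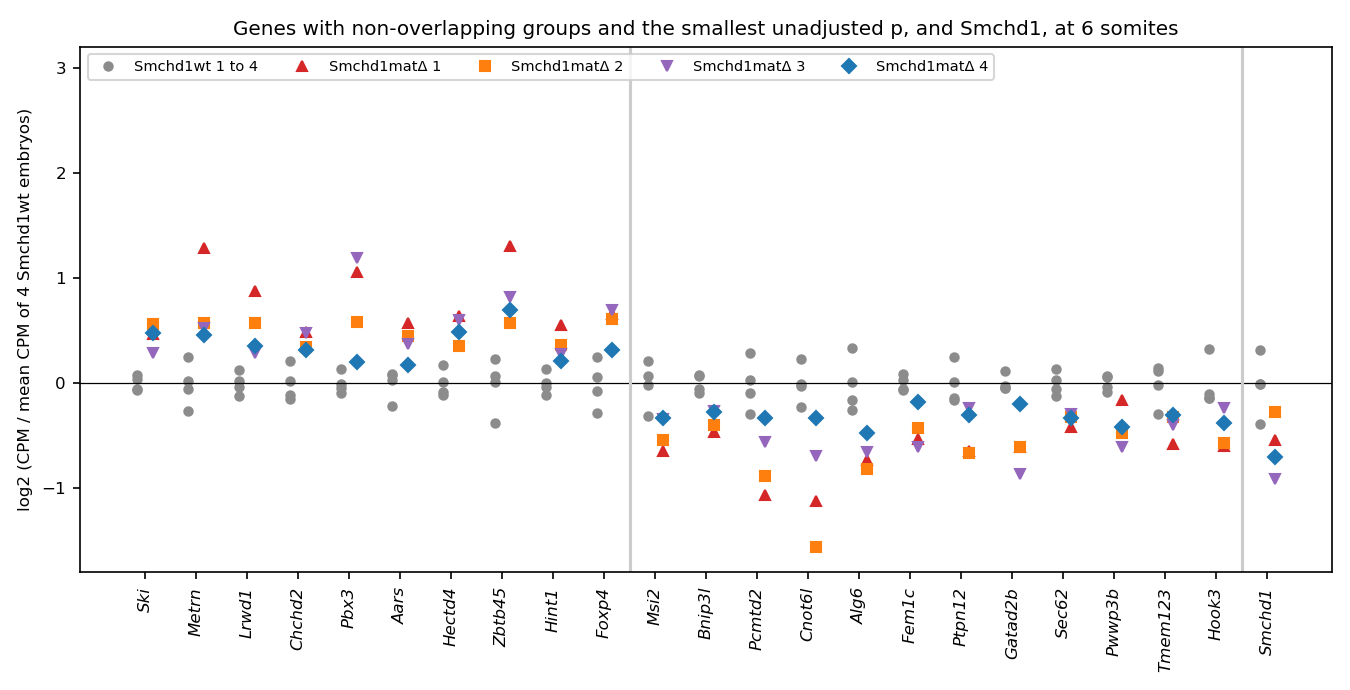
The vertical axis is each embryo's level as log2 of its CPM over the mean CPM of the 4 Smchd1wt embryos, and the horizontal axis lists 10 of the 12 higher genes, the 12 lower genes and Smchd1. Grey points are the Smchd1wt embryos and coloured symbols the Smchd1matΔ embryos: the 2 groups separate for all chosen genes shown, and Smchd1 overlaps because Smchd1matΔ 2 (112 CPM) lies above Smchd1wt 4 (104 CPM).

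All 24 genes kept their direction without Smchd1matΔ 1 and 2 and without Smchd1matΔ 3. Without Smchd1matΔ 1 and 2, 7 of the 12 higher and 9 of the 12 lower genes had an unadjusted p under 0.05 (1.25% and 1.19% of all genes). The genes were chosen for a small p and for groups that do not overlap, in a fit that holds these same embryos. Direction and p are thus both partly fixed by the choice, and neither is a sign of stability. Measured again in the 29 embryos of 7 to 11 somites, which had no part in the choice, 10 of the 12 higher genes were positive and 9 of the 12 lower genes negative. None of the 24 had an unadjusted p under 0.05 there in edgeR (background 2.99% of 15800 genes), none passed adjustment, and log2 fold changes of those named here lay between -0.15 and 0.12. Ski was at 0.02, Cnot6l at -0.07 and Pbx3 at -0.15 in the older embryos.

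The difference in genotype effect between 6 somites and the older embryos was tested directly. No gene passed adjustment (edgeR quasi-likelihood test, 15978 genes tested), and 494 genes with a more positive (3.09%) and 761 with a more negative effect (4.76%) at 6 somites had an unadjusted p under 0.05, 7.85% of genes in all. DESeq2 passed 3 genes, and leaving out Smchd1matΔ 4 passed 215 in edgeR, so 1 embryo decided that count. Of the 24 genes above, 10 higher and 10 lower had an unadjusted p under 0.05 in this test, which shares the 6 somite embryos that chose them. The smallest p were those of Phf2, a histone demethylase gene, Cers4, a ceramide synthase gene, Pbx3, Gstm6 and Taf9b. Phf2 ranged from 17.4 to 24.0 CPM in controls and from 25.9 to 36.6 CPM in Smchd1matΔ embryos, a log2 fold change of 0.61 against -0.07 in the older embryos (unadjusted p for the difference 1.77e-05). Cers4 ranged from 17.1 to 19.8 and from 9.50 to 14.3 CPM, a log2 fold change of -0.62 against 0.12. Gstm6, a glutathione transferase gene, ranged from 4.52 to 5.40 and from 1.44 to 3.12 CPM, and Taf9b, a subunit gene of the basal transcription machinery, from 2.07 to 3.45 and from 4.14 to 9.96 CPM.

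In the older embryos 2 genes passed adjustment (0.0127%), Smchd1 and Peg12, while 293 (1.85%) were higher and 180 (1.14%) lower at an unadjusted p under 0.05. Peg12 (chromosome 7, from 62461871 to 62464510) is an imprinted gene expressed from the paternal copy. It rose in the older embryos by 0.49 on the log2 scale (adjusted p = 0.0141, edgeR), a call that was absent in females alone and with the replicate number as a block. At 6 somites it stood at 16.9, 19.3, 19.7 and 25.1 CPM in controls and 24.4, 28.5, 22.9 and 30.5 CPM in Smchd1matΔ embryos. Smchd1wt 4 overlapped the lower Smchd1matΔ embryos. The log2 fold change at 6 somites was 0.42 (SE 0.18, unadjusted p = 0.0368), with the same sign as at the later stages.

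The 2 sets differed in the base composition of their transcripts. GC content of the longest transcript ran from 48.1% to 63.4% in the 12 higher genes and from 37.6% to 46.2% in the 12 lower genes, so the sets did not overlap. Among all genes at an unadjusted p under 0.05, median GC content was 56.0% for the 428 higher and 42.5% for the 358 lower genes, against 50.2% for all tested. Across the 14191 genes, the log2 fold change correlated with GC content at r = 0.318, a description across genes, which share the same 8 libraries. It was 0.127 without Smchd1matΔ 1 and 2, 0.342 without Smchd1matΔ 3 and 0.217 in the older embryos.

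The trend differed by library. Gene levels relative to the mean of all 37 libraries changed by 0.364, 0.0989, -0.252 and 0.144 on the log2 scale per 10 percentage points of GC in Smchd1matΔ 1 to 4, and by -0.0453, -0.188, 0.0585 and -0.0805 in Smchd1wt 1 to 4. Smchd1matΔ 1 exceeded the 29 older embryos, whose slopes ran from -0.321 to 0.266. With the GC content and length trends of each library removed, which was added after seeing the data, r was 0.016, 0 genes passed adjustment, and 373 higher (2.63%) and 213 lower genes (1.5%) had an unadjusted p under 0.05, or 4.13% in all. In that fit of all 8 embryos the 24 named genes kept their direction and 22 kept an unadjusted p under 0.05 in edgeR. Those that did not were Foxp4 (0.31) and Pwwp3b (-0.20). The same 8 embryos chose the 24 genes, so these counts test nothing further. With the trends removed Smchd1 stood at -0.40 (unadjusted p = 0.0431 in edgeR). Leaving out Smchd1matΔ 1 and 2 as well gave 220 higher (1.48%) and 113 lower genes (0.763%), 2.25% in all, with Smchd1 at -0.75 (unadjusted p = 0.00181).

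**Figure D2:**
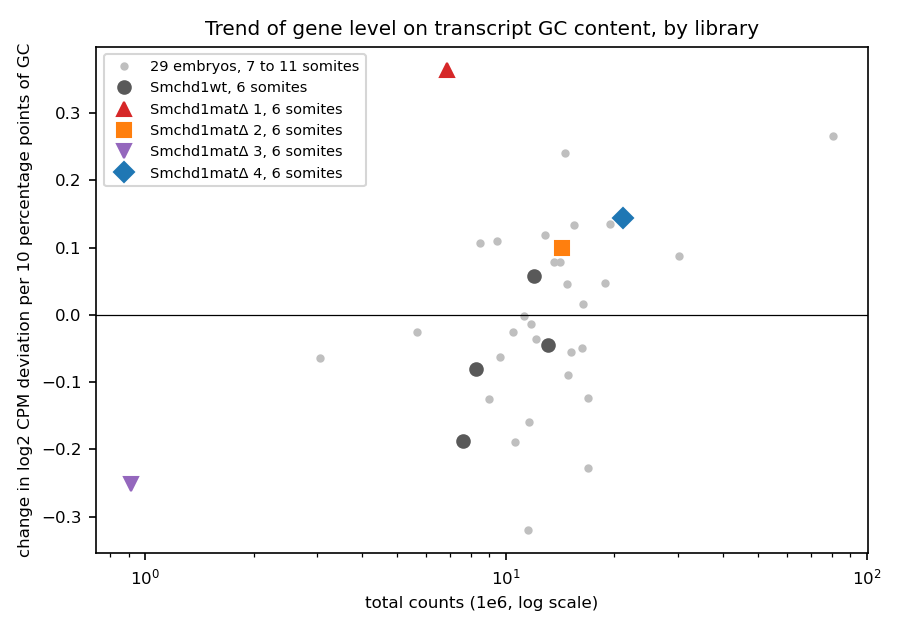
The vertical axis is the slope of a library's gene levels (log2 deviation from the mean of all 37 libraries) per 10 percentage points of transcript GC content, and the horizontal axis is the library's total counts on a log scale. Each point is 1 embryo: Smchd1matΔ 1 has the steepest positive slope (0.364), the shallow Smchd1matΔ 3 a negative slope (-0.252), and the 4 Smchd1wt embryos lie between -0.188 and 0.0585.

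The direction of the 786 genes was also read in the older embryos. Of the 428 higher genes, 72.7% were positive there, and of the 358 lower genes 24.6%, against 48.7% of all genes tested. With the GC content and length trends removed at 6 somites, the same shares were 59.0% and 40.4% for the genes then at an unadjusted p under 0.05. At the older stages 18 of the 428 and 7 of the 358 had an unadjusted p under 0.05 in the same direction, which is 4.21% and 1.96%. Of all genes tested there, 1.85% were higher and 1.14% lower at that threshold. Of the genes at that threshold without Smchd1matΔ 1 and 2, 69.6% of the higher and 14.4% of the lower were positive in the older embryos, and with the trends also removed 63.9% and 13.5%.

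Leaving out Smchd1matΔ 1 and 2 brought other genes forward. Fat1, an atypical cadherin gene, was at 126, 120, 119 and 112 CPM in controls and 170 and 154 CPM in Smchd1matΔ 3 and 4, with 133 and 136 CPM in the embryos left out. It had a log2 fold change of 0.43 without those embryos (unadjusted p = 0.00307), 0.30 with them, and 0.26 in the older embryos (unadjusted p = 0.0471). Pcdh19, a protocadherin gene of the segmenting mesoderm and nervous system on the X chromosome, was at 70.9, 55.3, 46.6 and 57.2 CPM in controls and at 49.96, 76.9, 77.5 and 92.5 CPM in Smchd1matΔ embryos. Only Smchd1matΔ 1 fell within the controls. Rnf213, Prr12 and Slc25a37, a mitochondrial iron importer gene, completed the 5 higher genes, and Rnf213 and Slc25a37 were lower than all controls in Smchd1matΔ 1 and 2.

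The lower genes of that fit, beside Smchd1, were Pmp22, Prl3d1, Prl7a1 and Cyp11a1. Prl3d1 and Prl7a1, placental hormones of the prolactin family, and Cyp11a1, the first enzyme of steroid synthesis, were each near 0 in Smchd1matΔ 3 and 4. Cyp11a1 stood at 11.7, 53.8, 5.40 and 5.82 CPM in controls and at 207, 22.5, 0 and 0.883 CPM in Smchd1matΔ embryos. The highest and lowest of the 8 embryos were thus all Smchd1matΔ, and its log2 fold change was 1.71 with all 8 and -4.52 without Smchd1matΔ 1 and 2. Prl7a1 was at 43.8 CPM in Smchd1matΔ 1, at 4.11 in Smchd1matΔ 2, at 0 and 0.0930 in the other 2 and between 1.39 and 26.6 in controls. Prl3d1 was at 17.9, 13.5, 1.72 and 2.61 CPM in controls and at 26.5, 2.95, 0 and 0.139 CPM in Smchd1matΔ embryos. The 0 of Smchd1matΔ 3 is a count of 0, which at its depth allows up to 3.27 CPM (3 counts, counting error only). Fitted fold changes of genes this low depend on edgeR's default prior count.

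Genes that set up the body axis were measured by role. Among regulators of the tailbud progenitors, 13 streak and neuromesodermal progenitor genes included 12 tested. Of these 1 was higher and 1 lower at an unadjusted p under 0.05 (all genes 3.02% and 2.52%). The median of the 12 was -0.09 (log2 fold change). Sox2, a factor of the neural lineage, had the smallest p. It stood at 36.5, 33.2, 28.7 and 36.0 CPM in controls and 54.7, 41.2, 82.9 and 32.3 CPM in Smchd1matΔ embryos, highest in the shallow Smchd1matΔ 3 (76 counts) and within the controls in Smchd1matΔ 4. T stood at 207, 241, 259 and 253 CPM in controls and 206, 167, 275 and 229 CPM in Smchd1matΔ embryos, with full overlap and a log2 fold change of -0.15. Of the 3 Cdx genes, which activate Hox genes in the tailbud, Cdx1 had a log2 fold change of 0.51 (unadjusted p = 0.0238). Its level of 284 CPM in Smchd1matΔ 1 stood against 112 to 162 CPM in the other 7 embryos, and without Smchd1matΔ 1 and 2 its log2 fold change was 0.13.

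In the presomitic mesoderm list, 1 of 11 tested genes was higher at an unadjusted p under 0.05 (all genes 3.02%, list median log2 fold change 0.22, and 0.26 without Smchd1matΔ 1 and 2). This gene was Foxc2, a forkhead factor of paraxial mesoderm, with 5.37, 1.94, 5.32 and 5.59 CPM in controls and 17.3, 19.95, 4.36 and 10.0 CPM in Smchd1matΔ embryos. Smchd1matΔ 3 lay within the controls and the rest above them. Its log2 fold change was 1.59 (SE 0.41, unadjusted p = 0.00179), 0.82 without Smchd1matΔ 1 and 2, and 0.26 in the older embryos. Of 11 Notch clock genes 9 were positive (median 0.24 on the log2 scale) and none at an unadjusted p under 0.05. Without Smchd1matΔ 1 and 2, 2 of the 11 were higher at that threshold (all genes 1.25%). Dll3, a Notch ligand needed for segmentation, stood at 36.8, 23.3, 39.0 and 35.7 CPM in controls and 51.2, 31.6, 51.3 and 50.2 CPM in Smchd1matΔ embryos. Smchd1matΔ 2 overlapped the controls and the other 3 exceeded all of them, and the log2 fold change was 0.43, or 0.57 without Smchd1matΔ 1 and 2 (unadjusted p = 0.0173) and 0.15 at later stages.

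Signals that act on the tailbud showed no gene past adjustment. None of 12 Wnt target, 15 FGF pathway or 15 BMP pathway genes tested had an unadjusted p under 0.05, and the medians were -0.01, -0.11 and 0.10. Fgf8, the main FGF ligand of the tailbud, ranged from 23.45 to 49.4 CPM in controls and from 27.3 to 48.7 CPM in Smchd1matΔ embryos. Wnt3a, the Wnt ligand of its progenitors, ranged from 61.4 to 78.1 and from 50.7 to 84.3 CPM. Both spreads overlapped throughout. The smallest p in each list belonged to Apcdd1, a Wnt inhibitor (-0.25), Spred1, an inhibitor of FGF signalling (-0.29), and Bmp7, a BMP ligand (-0.45), all with overlapping groups. Of 7 genes that time the change from trunk to tail, none was at an unadjusted p under 0.05, and Tgfbr1, a receptor for growth factors of the TGF-beta family, had the smallest (-0.31).

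The retinoic acid pathway, which counters FGF at the front of the tailbud, had 2 of 11 tested genes higher at an unadjusted p under 0.05 (all genes 3.02%), and 0 of 11 without Smchd1matΔ 1 and 2. Aldh1a2 (chromosome 9, from 71215789 to 71296243) makes retinoic acid in somites. It stood at 18.7, 14.3, 10.8 and 16.5 CPM in controls and at 84.9, 115, 3.27 and 25.9 CPM in Smchd1matΔ embryos. Smchd1matΔ 1 and 2 were several-fold above every other embryo, while Smchd1matΔ 3, with 3 counts, was lowest. The log2 fold change was 2.04 (SE 0.51, unadjusted p = 0.00135), and 0.29 without Smchd1matΔ 1 and 2. Rarb, a retinoic acid receptor, was also highest in Smchd1matΔ 1 and 2, with 2.26 to 6.09 CPM in controls and 11.0, 15.5, 6.55 and 3.58 CPM in Smchd1matΔ embryos. Cyp26a1, the enzyme that degrades retinoic acid in the tailbud, ranged from 80.5 to 133 CPM in controls and from 67.3 to 85.7 CPM in Smchd1matΔ embryos.

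Nodal pathway and left-right genes had the largest list median of the signalling lists, 1.01 on the log2 scale. All 7 tested genes were positive, and 2 were higher at an unadjusted p under 0.05 (all genes 3.02%). Without Smchd1matΔ 1 and 2 the median was 0.46, with 5 of 7 positive and 0 at that threshold. Lefty2, a secreted Nodal inhibitor of the left side, stood at 3.07, 4.41, 3.36 and 5.70 CPM in controls and at 32.8, 17.4, 14.2 and 4.51 CPM in Smchd1matΔ embryos. Only Smchd1matΔ 4 fell within the controls. The log2 fold change was 2.08 (SE 0.48, unadjusted p = 0.000706), 0.93 without Smchd1matΔ 1 and 2, and -0.67 in the older embryos. Nodal, the ligand itself, was at 0.460, 0, 0.900 and 2.14 CPM in controls and at 4.75, 3.10, 1.09 and 2.14 CPM in Smchd1matΔ embryos, all low levels. The summed level of the list was 35.9 to 44.8 CPM in controls, 136 and 61.8 CPM in Smchd1matΔ 1 and 2, and 37.1 and 50.3 CPM in Smchd1matΔ 3 and 4.

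Somite markers followed the same embryos. Their summed level was 9.27, 15.4, 11.9 and 15.2 CPM in controls and 30.7, 67.9, 16.4 and 16.8 CPM in Smchd1matΔ embryos, and 9.60 to 28.5 CPM over the 29 older embryos. Meox1, a homeobox factor of early somites, stood at 1.61, 1.81, 1.72 and 5.94 CPM in controls and 12.9, 38.5, 0 and 6.70 CPM in Smchd1matΔ embryos. Tcf15, which makes somites epithelial, was at 6.99 CPM in Smchd1matΔ 2 and at most 1.16 CPM elsewhere. Of the defining markers, Pax1 had no counts in any library and Uncx at most 1.01 CPM, whereas Pax3 ranged from 4.75 to 9.85 CPM in controls and from 6.37 to 13.1 CPM in Smchd1matΔ embryos. Of the 10 genes in the list only 3 passed the filter on low counts. Meox1, Aldh1a2 and Foxc2 were thus all highest in Smchd1matΔ 2, which with Smchd1matΔ 1 also had the high ribosomal RNA share, and whether extra somite tissue has a part in these values was not tested.

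No Hox gene passed adjustment, and the direction of the group varied with the setting. Of 27 expressed genes of paralogue groups 1 to 9, 26 were tested, of which 16 were negative and 10 positive. At an unadjusted p under 0.05, 3 were lower (Hoxa7, Hoxc8 and Hoxd8; all genes 2.52%) and none higher, and the median log2 fold change was -0.10. Without Smchd1matΔ 1 and 2, 14 of 26 were positive and the median was 0.07, with 1 higher and none lower. Smchd1matΔ 4 alone against the controls gave 11 positive and a median of -0.03. With the GC content and length trends described above removed, 7 were positive and the median was -0.13, with 6 lower (all genes 1.5%) and none higher. Hoxc8 (chromosome 15, from 102990607 to 102994111) stood at 172, 144, 173 and 141 CPM in controls and at 126, 116, 153 and 133 CPM in Smchd1matΔ embryos. Smchd1matΔ 3 lay within the controls and the other 3 just below. Its log2 fold change was -0.27 (SE 0.11, unadjusted p = 0.031), and -0.17 without Smchd1matΔ 1 and 2.

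The spread among Hox genes was also seen on the deposited log2 RPKM scale, which corrects for transcript length and so allows levels of different genes to be set side by side. Hoxb9 was the most abundant, with a mean log2 RPKM of 6.97 ± 0.08 in controls and 6.83 ± 0.34 in Smchd1matΔ embryos (SD, n = 4 each). Hoxa7 came next among the genes named here, at 5.81 ± 0.09 and 5.53 ± 0.18. Hoxc4 was at 5.08, 5.48, 5.34 and 5.13 in controls and 3.89, 4.49, 5.75 and 5.22 in Smchd1matΔ embryos, so that Smchd1matΔ 1 and 2 were below all controls and Smchd1matΔ 3 above them. Hoxb4 was lowest in Smchd1matΔ 1 (2.22) and highest in Smchd1matΔ 3 (3.51), with controls between 3.03 and 3.45. Hoxb8 ran from 5.06 to 5.39 in controls and was at 4.76, 4.91, 5.94 and 5.31 in Smchd1matΔ embryos. Hoxb1 had means of 5.02 ± 0.15 and 5.10 ± 0.07.

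As a score, the mean log2 RPKM of the 27 genes was 3.75, 3.69, 3.89 and 3.71 in controls and 3.47, 3.53, 3.65 and 3.81 in Smchd1matΔ embryos. Smchd1matΔ 1 to 3 lay below all controls and Smchd1matΔ 4 above 3 of them. The summed level of the 27 genes ordered the embryos otherwise, at 1415, 1426, 1795 and 1657 CPM in Smchd1matΔ 1 to 4 and 1613 to 1711 CPM in controls. The shallow Smchd1matΔ 3 was thus highest by sum. Its score gives equal weight to low genes such as Hoxb5, at -1.56 there against a control mean of 1.18. The difference in the score was -0.15 (exact permutation test, two-sided p = 0.171), -0.03 without Smchd1matΔ 1 and 2 (p = 0.733, where the smallest possible p is 0.0667) and -0.16 without Smchd1matΔ 3 (p = 0.229). Posterior genes were barely expressed. For the 6 genes of groups 10 to 13 with enough counts the difference was -0.11 (exact permutation p = 0.886), and Hoxc12 and Hoxd12 had no counts in any of the 8 libraries.

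**Figure D3:**
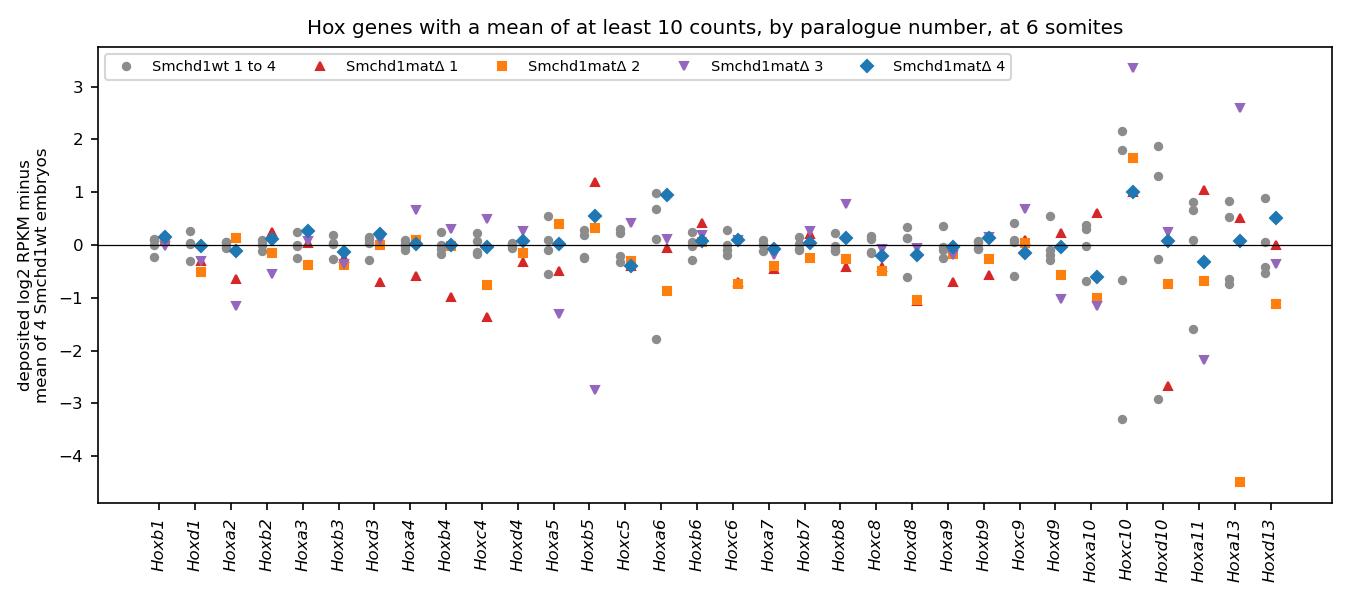
The vertical axis is each embryo's deposited log2 RPKM minus the mean of the 4 Smchd1wt embryos, and the horizontal axis lists Hox genes averaging 10 counts or more in order of paralogue number. Grey points are Smchd1wt and coloured symbols Smchd1matΔ embryos: Smchd1matΔ 1 and 2 lie low for Hoxc4, Hoxc6 and Hoxd8 while Smchd1matΔ 4 stays near 0, and the genes from Hoxa10 on scatter over several units.

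Markers of tissues beside the tailbud varied more between single embryos than between genotypes. Primitive red cell genes were the extreme case. Hbb-bh1 (chromosome 7, from 103841637 to 103843164), an embryonic beta-like globin, stood at 69.5, 28.1, 75.6 and 43.9 CPM in controls and at 73.7, 64.6, 17.5 and 2674 CPM in Smchd1matΔ embryos. Smchd1matΔ 4 alone was high, Smchd1matΔ 1 and 2 lay within the controls and Smchd1matΔ 3 below them. The log2 fold change was 3.72 (SE 1.10, unadjusted p = 0.00429). Smchd1matΔ 4 alone against the controls gave 5.61 (adjusted p = 6.23e-05 in edgeR), a call that rests on that embryo. Hba-x, the embryonic alpha-like globin, followed with 286 CPM in Smchd1matΔ 4 and 7.13 to 46.6 CPM in the other 7, and Hbb-y, the other embryonic beta-like globin, with 69.6 CPM against 1.09 to 20.95 CPM.

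Hbb-y and Hbb-bh1 lie in the beta-globin cluster and Hba-x in the alpha-globin cluster, and all are genes of the first wave of red cells, which form in the yolk sac. The region just before the start of Hbb-y (RefSeq, GRCm38.p6, chr7:103853208-103853357, minus strand) is shown because the gene was high together with the other globins in 1 embryo, and because such promoters are known for binding sites of erythroid factors.
Hbb-y: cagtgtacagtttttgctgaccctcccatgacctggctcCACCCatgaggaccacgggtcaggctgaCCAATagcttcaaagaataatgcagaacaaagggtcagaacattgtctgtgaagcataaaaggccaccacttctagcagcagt
Capitals mark CACCC and CCAAT, each found 1 time when both strands were searched, and GATAA was found 0 times. Over 32843 promoter windows of the same 150 bases, 37.44% held CACCC, 24.5% CCAAT and 13.35% GATAA. The matches describe these letters and are not evidence of binding.

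The red cell regulators Gata1 and Klf1 were also highest in Smchd1matΔ 4, at 8.51 and 5.25 CPM, against at most 2.76 and 1.08 CPM in the other 7 embryos. The summed level of the 16 genes of the red cell list was 139, 191, 187 and 119 CPM in controls and 210, 148, 62.2 and 3158 CPM in Smchd1matΔ embryos. In the older embryos it ran from 36.7 to 4408 CPM over both genotypes, a range that contains the value of Smchd1matΔ 4. The summed endothelial list did not share this pattern. It ran from 275 to 408 CPM in controls and from 277 to 364 CPM in Smchd1matΔ embryos. Kdr, a receptor of vascular growth factor, ranged from 121 to 173 CPM in controls and from 120 to 158 CPM in Smchd1matΔ embryos.

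**Figure D4:**
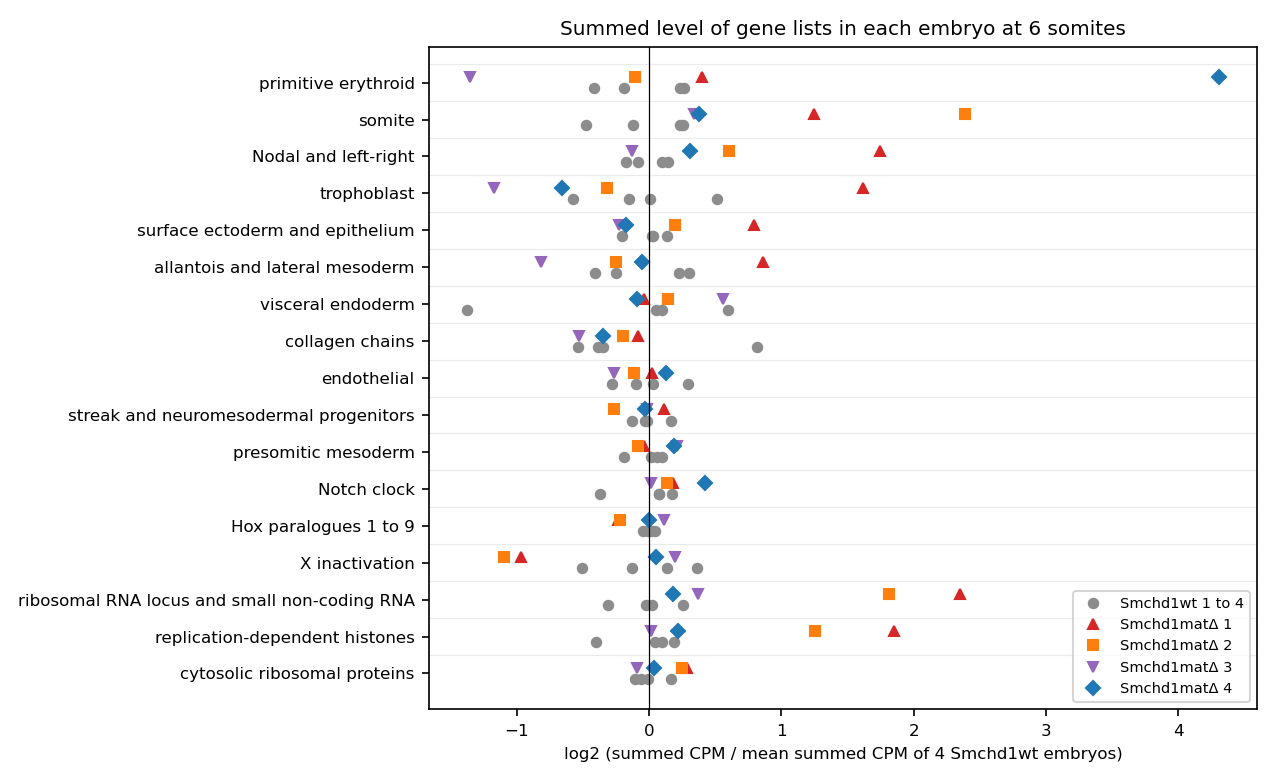
The horizontal axis is the summed CPM of each gene list in an embryo as log2 over the mean of the 4 Smchd1wt embryos, and rows are the lists. Red cell genes are high in Smchd1matΔ 4 alone (3158 CPM), somite, Nodal, ribosomal RNA and histone lists are high in Smchd1matΔ 1 and 2, and the trophoblast list in Smchd1matΔ 1 (278 CPM).

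Extra-embryonic genes were uneven between embryos of both genotypes. The trophoblast list summed to 130, 81.9, 91.4 and 61.0 CPM in controls and 278, 72.7, 40.4 and 57.6 CPM in Smchd1matΔ embryos, although Tpbpa was at 0 in all 4 of the latter. Hand1, which is also expressed in lateral mesoderm, gave 214 CPM of the sum in Smchd1matΔ 1 and was between 38.2 and 79.3 CPM in the others. Krt7, a keratin of simple epithelia, was at 83.4 CPM in Smchd1matΔ 1 and at 6.06 to 20.1 CPM elsewhere. Visceral endoderm genes, which mark the outer layer of the yolk sac, were lowest in Smchd1wt 2 (716 CPM summed) and highest in Smchd1wt 4 (2813 CPM), with Smchd1matΔ embryos between at 1808, 2057, 2744 and 1749 CPM. Afp, for example, ran from 74.9 to 365 CPM in controls and from 181 to 374 CPM in Smchd1matΔ embryos, so the groups overlapped.

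A search for genes over 2-fold above all other 7 embryos, among 11226 genes with a mean of at least 5 CPM, described the same embryos without a marker list. It found 60 genes in Smchd1matΔ 1, 3 in Smchd1matΔ 2, 65 in the shallow Smchd1matΔ 3 and 5 in Smchd1matΔ 4, and 17, 18, 0 and 0 in Smchd1wt 1 to 4. These genes were picked from their values and carry no test. In Smchd1matΔ 1 they included Cyp11a1, Star, which carries cholesterol into mitochondria for steroid synthesis (71.3 CPM, next highest 24.6), the haem oxygenase gene Hmox1 (126 and 23.4 CPM) and the imprinted growth inhibitor Cdkn1c (312 and 88.5 CPM). In Smchd1wt 1 they included basement membrane genes, with Lama1 at 632 CPM (next highest 97.7), Col4a1 at 1245 CPM (328) and Nid1 at 292 CPM (47.5). Others there were of different kinds, such as Srgn at 35.3 CPM (14.4) and the prolactin family gene Prl2c3 at 27.2 CPM (12.9). In Smchd1wt 2 the genes included Prl8a2, a decidual prolactin, at 183 CPM (28.5), the protease inhibitor gene A2m at 104 CPM (10.9) and Tdo2, a tryptophan-degrading enzyme, at 62.4 CPM (12.7). The 5 genes of Smchd1matΔ 4 were the 3 embryonic globins, Lyve1 and S100a1. Genes over 2-fold below all other 7 embryos numbered 83, 20, 620 and 2 in Smchd1matΔ 1 to 4, most in the shallow Smchd1matΔ 3. In Smchd1wt 1 to 4 they numbered 1, 55, 2 and 5.

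Gene groups that SMCHD1 is known to silence were counted at an unadjusted p under 0.05. Of 53 tested imprinted genes, 3 were higher and 1 lower (all genes 3.02% and 2.52%), with a median log2 fold change of 0.06. Ndn, a paternally expressed gene of the Prader-Willi region, stood at 77.9, 67.4, 73.3 and 74.3 CPM in controls and 95.6, 85.7, 125 and 87.2 CPM in Smchd1matΔ embryos. The groups did not overlap (1.58% of all genes lay above the controls in this way). Its log2 fold change was 0.39 (SE 0.13, unadjusted p = 0.00837), 0.47 without Smchd1matΔ 1 and 2, and 0.17 in the older embryos (unadjusted p = 0.00327). Sfmbt2, imprinted in the placenta without DNA methylation, was at 83.8 CPM in Smchd1matΔ 1 and at 8.74 to 18.4 CPM in the other 7, and its log2 fold change of 1.14 became -0.68 without Smchd1matΔ 1 and 2. Of 34 tested clustered protocadherins none was at an unadjusted p under 0.05 and the median was 0.02, with the smallest p for Pcdhac1 (-0.69).

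X-linked genes were read in females alone. Of 487 tested genes, 8 were higher and 20 lower at an unadjusted p under 0.05 (all genes 3.02% and 2.52%), with a median log2 fold change of -0.04 beside 0.0056 for all genes. Without Smchd1matΔ 3 it was 12 higher and 46 lower (all genes 5.52% and 5.03%), with a median of -0.08. Without Smchd1matΔ 1 and 2 it was 10 higher and 7 lower (all genes 1.25% and 1.19%), with a median of -0.04. With the GC content and length trends removed in all 8 embryos, the median was 0.03 with 12 higher and 7 lower (all genes 2.63% and 1.5%). Xist, which coats the inactive chromosome, stood at 437, 892, 585 and 728 CPM in controls and at 303, 276, 803 and 706 CPM in Smchd1matΔ embryos. Smchd1matΔ 1 and 2 were below all controls and the other 2 within them, with a log2 fold change of -0.36 (unadjusted p = 0.26), or 0.18 without Smchd1matΔ 1 and 2. Tsix, its antisense partner, was lowest in the same embryos (19.9 and 19.1 CPM, controls 26.4 to 60.2), and reads of the 2 genes cannot be told apart without strand. Rlim, an X-linked activator of Xist, had a log2 fold change of -0.38 (unadjusted p = 0.00907), with 140 to 174 CPM in controls and 121, 97.7, 131 and 146 CPM in Smchd1matΔ embryos.

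Chromatin regulators stayed close to the controls. Among 12 genes of Polycomb repressive complex 2, 1 was higher and 1 lower at an unadjusted p under 0.05 (all genes 3.02% and 2.52%), with a median of -0.05. Mtf2, which recruits the complex to CpG islands, ranged from 163 to 221 CPM in controls and from 148 to 163 CPM in Smchd1matΔ embryos, a log2 fold change of -0.32 (unadjusted p = 0.012) and -0.11 with the GC content and length trends removed. Ezh2, the enzyme of the complex, had a log2 fold change of -0.05. In Polycomb repressive complex 1, 2 of 22 tested genes were lower, among them the ubiquitin ligase Rnf2 with a log2 fold change of -0.26 (unadjusted p = 0.0215). It too was nearer to 0, at -0.09, with the trends removed. None of 12 DNA methylation and imprint genes was at an unadjusted p under 0.05, and Zfp57, which protects imprints, had the smallest p (-0.35). Lrif1, the partner of SMCHD1, had a log2 fold change of -0.33 (unadjusted p = 0.216).

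Ribosomal and histone RNAs were high in Smchd1matΔ 1 and 2. The ribosomal RNA locus and small non-coding RNA list summed to 9185 to 13634 CPM in controls, 58230 and 39985 CPM in Smchd1matΔ 1 and 2, and 14752 and 12888 CPM in Smchd1matΔ 3 and 4. All 7 tested members were higher at an unadjusted p under 0.05 (all genes 3.02%), their median being 2.08 on the log2 scale, which was 0.29 without that pair. Replication-dependent histone genes, whose messages lack a poly(A) tail, summed to 22.2 to 33.3 CPM in controls, 105 and 69.7 CPM in Smchd1matΔ 1 and 2, and 29.5 and 34.0 CPM in the others. Cytosolic ribosomal protein genes had a median of 0.11 with 74 of 81 positive, against -0.02 with 31 of 81 positive without the pair, and the smallest p was that of Rps19 (0.33). Of 12 mitochondrial genome transcripts 3 were higher (all genes 3.02%), led by mt-Cytb (0.45), and of 27 collagen genes 2. The latter were led by Col1a1, at 68.2 and 55.0 CPM in Smchd1matΔ 1 and 2 and 25.1 to 37.7 CPM elsewhere. Without that pair neither list had a higher gene at an unadjusted p under 0.05, and each had 1 lower. With low-count genes kept in the test, 7 of 21558 genes passed adjustment (edgeR), and each was highest in Smchd1matΔ 1 and 2. They were Gm26917, Gm42418, AY036118 and CT010467.1 of the ribosomal RNA list, Aldh1a2, and the low genes Nr2f1 (39 and 99 counts in Smchd1matΔ 1 and 2, and 6 counts over the other 6 libraries) and Cer1 (41 and 177 counts, and 1 count over the others). The part of the ribosomal RNA share in the somite, Nodal and retinoic acid values was not tested.

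The next counts stand beside 3.02% of all genes higher and 2.52% lower at an unadjusted p under 0.05. In the neural tube list 2 of 9 tested genes were at that threshold (both higher). They were led by Hes3, a repressor of neural differentiation, with 16.6 to 23.1 CPM in controls and 39.5, 34.9, 22.9 and 25.1 CPM in Smchd1matΔ embryos. In the gut endoderm list it was 1 of 7 (higher), Trh, a peptide hormone gene with 19.5 and 17.1 CPM in Smchd1matΔ 1 and 2 and 6.66 to 12.8 CPM elsewhere. In the visceral endoderm list it was 1 of 16 (higher), the endocytic receptor gene Lrp2 (0.46). Without Smchd1matΔ 1 and 2, no gene of the neural tube, gut endoderm and visceral endoderm lists was at that threshold. None of 7 node and notochord, 12 surface ectoderm, 13 endothelial, 9 allantois and lateral mesoderm, 6 cardiac and 5 trophoblast genes tested reached that threshold. The smallest p there belonged to Dand5, a Nodal inhibitor (1.08), Krt7, Sox7 (-0.74), Foxf1 (-0.32), Tbx5 (1.04) and Hand1. In the germ cell and pluripotency list 1 of 9 was higher and 2 were lower, led by Prdm1, which is needed to form germ cells. Prdm1 ranged from 12.6 to 22.3 CPM in controls and was at 10.3, 8.07, 5.46 and 11.8 CPM in Smchd1matΔ embryos, without overlap (1.9% of all genes), with a log2 fold change of -0.80 (unadjusted p = 0.0107), and -0.06 in the older embryos.

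Growth and stress genes were read against the 3.02% of all genes that were higher and the 2.52% that were lower at an unadjusted p under 0.05. Of 22 glycolysis and hypoxia genes 3 were higher and 1 lower (median 0.06). Without the shallow Smchd1matΔ 3 it was 8 higher and 1 lower (all genes 5.52% and 5.03%), and without Smchd1matΔ 1 and 2 it was 1 higher. In the older embryos 8 of the 22 were higher (all genes 1.85%) and 20 were positive, with a median of 0.11. Of 19 cell cycle genes none was at that threshold (median 0.06). Bnip3, a hypoxia-induced mitochondrial protein, ranged from 89.3 to 94.7 CPM in controls and from 65.9 to 83.0 CPM in Smchd1matΔ embryos, without overlap. Its log2 fold change was -0.29 at 6 somites (unadjusted p = 0.0169) and 0.18 in the older embryos. Of 8 heat shock genes tested all were positive and 3 at an unadjusted p under 0.05, with a median of 0.23. None was at that threshold without Smchd1matΔ 1 and 2, where the median was 0.06. Of 23 cholesterol synthesis genes 1 was lower, Insig1 (-0.45), of 15 p53 targets 1 was higher, Bax (0.27), and of 10 amino acid and unfolded protein genes none was at an unadjusted p under 0.05. In the immediate early list 3 of 14 were higher and 1 was lower, led by Myc, and none without Smchd1matΔ 1 and 2. Myc, a growth factor response gene, was at 91.8 CPM in Smchd1matΔ 1 and 39.2 to 58.2 CPM in the other 7.

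Developmental age was estimated from the transcriptome, since embryos with the same somite count can differ in age. Genes whose level changed with somite number were taken from the 17 Smchd1wt embryos of 7 to 11 somites, in which 96 of 15511 genes tested (0.619%) passed adjustment in edgeR and 824 rising (5.31%) and 987 falling genes (6.36%), 11.7% in all, had an unadjusted p under 0.05. Among the steepest were Cfc1 (Cripto family co-receptor of Nodal) and Foxh1 (its transcription factor), which fell by 0.76 and 0.55 on the log2 scale per somite. An index of 100 rising and 100 falling genes, set on a scale of somites, gave 6.84, 6.61, 7.25 and 6.61 in Smchd1wt embryos and 6.29, 6.96, 6.70 and 6.99 in Smchd1matΔ embryos. The values overlapped, and the lowest was Smchd1matΔ 1. Means were 6.83 ± 0.30 and 6.73 ± 0.32 somites (SD, n = 4 each), a difference of -0.09 (exact permutation test, two-sided p = 0.714). The difference was -0.38 with 50 genes of each direction (exact permutation p = 0.257), 0.02 with 200, and 0.06 without Smchd1matΔ 1.

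**Figure D5:**
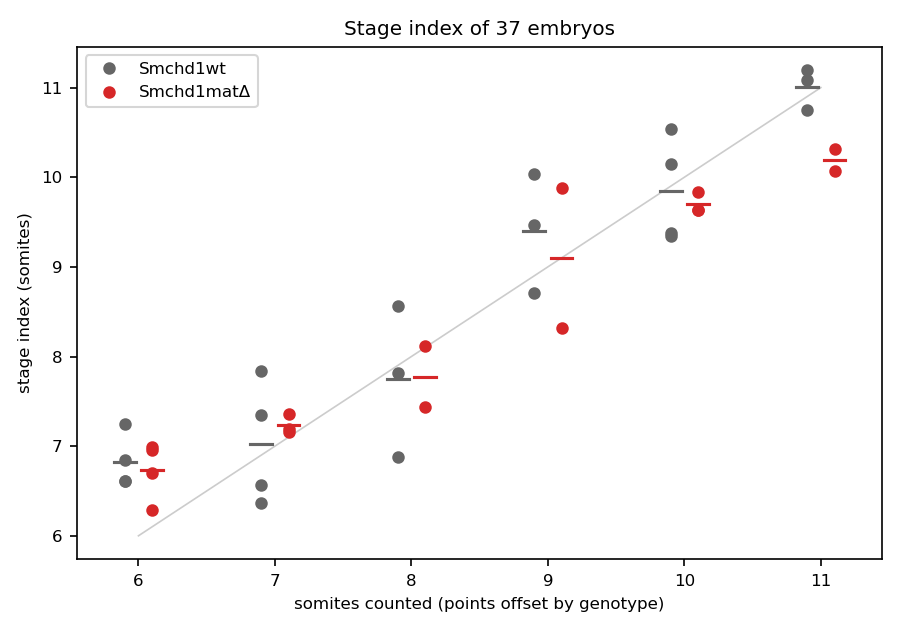
The vertical axis is the stage index in somites and the horizontal axis the counted somite number, with Smchd1wt embryos in grey, Smchd1matΔ embryos in red and a bar at each group mean. The line marks equality: at 6 somites the 4 Smchd1wt embryos lie between 6.61 and 7.25 and the 4 Smchd1matΔ embryos between 6.29 and 6.99, so the groups overlap. All 8 lie above the line, which reaches 6 somites outside the range that set the scale.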

How the data were processed

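RNA-seq was performed on single tailbuds. According to the study's methods, libraries were made with a TruSeq mRNA kit (version 2 or stranded; which library used which is not given in the sources used here), sequenced single-end, trimmed with Trim Galore 0.4.4, mapped with HISAT2 2.0.5 to GRCm38.p6 and quantified in SeqMonk. The authors deposited a raw count and a log2 RPKM per gene and embryo. How genes without reads received a log2 RPKM is not given in the sources used here. Of 35591 rows, 49 repeats were dropped, and 26 gene symbols held as spreadsheet dates were set back. Columns of the authors' own comparisons were not used. Overlapping and antisense genes are uncertain, since strand handling is not given.

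From the counts, genes with low counts were removed (filterByExpr, minimum count 10) and libraries were scaled by TMM. Genotypes were compared with edgeR 4.0.16 (quasi-likelihood test, R 4.3.3) with Benjamini-Hochberg adjustment at 0.05. A prior count of 2 entered log2 CPM values only, and fitted fold changes used edgeR's default. DESeq2 1.42.0 and limma 3.58.1 were alternatives. The older embryos were fitted with somite number and sex. Exact permutation tests, list sums and the stage index used Python 3.11.15, pandas 2.3.3, NumPy 2.4.6 and SciPy 1.17.1. The fits were tested on simulated data. In the 6 somite fit 37.3% of 1.5-fold, 64.2% of 2-fold and 95.5% of 4-fold changes passed adjustment, and so did 17 unchanged genes. The simulated counts varied gene by gene and held none of the GC or ribosomal RNA differences between the real libraries. Changes of 2-fold and less could thus be missed at 6 somites. CPM are TMM-scaled, and totals of 916444 to 21082220 counts set the precision.

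Named were Smchd1, the 12 higher and 12 lower genes with the smallest p among those with a mean of at least 5 CPM and no overlap between groups (predicted genes left out), 5 and 5 by the same rule without Smchd1matΔ 1 and 2, the smallest p in each list and the 5 smallest for the difference between ages. Genes from the search of single embryos, and Nr2f1 and Cer1, were chosen after their values were seen. The members and lists were chosen with earlier results of these data known. Nothing says whether embryos shared a litter, so p-values measure the spread between these embryos. No pair of libraries of the same genotype agreed within sampling noise (chi-square per degree of freedom 5.12 to 48.0). Pairs across genotypes were not compared. A few genes that the rules select are not reported here.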

Additional observations from a re-analysis of the deposited data

Results flagged for a closer look

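In 17 of 164 checks (10.4%), the highest or lowest of 4 embryos stood apart from its group, its gap to the nearest embryo taking up more of the group's range than Dixon's 95% limit. Chance gives about 1 in 20. Smchd1matΔ 1 accounted for 7 of the 17, Smchd1wt 1 for 5, Smchd1matΔ 4 and Smchd1wt 2 for 2 each, and Smchd1matΔ 2 for 1.

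In Smchd1matΔ 1 the summed levels of the trophoblast list (278 CPM), the germ cell and pluripotency list (232 CPM) and the imprinted list (15651 CPM) stood apart, as did Metrn (81.2 CPM), Prl3d1 (26.5 CPM), Prl7a1 (43.8 CPM) and Cyp11a1 (207 CPM). In Smchd1matΔ 2 it was the summed Cdx genes (905 CPM). In Smchd1matΔ 4 they were the summed node and notochord list (63.6 CPM) and the summed red cell list (3158 CPM).

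Controls were set apart in the same way. Smchd1wt 1 differed in the summed collagen (2309 CPM), cholesterol synthesis (1250 CPM), Polycomb repressive complex 1 (1120 CPM) and cardiac lists (16.2 CPM) and in Gatad2b (73.0 CPM). Smchd1wt 2 differed in Hook3 (105 CPM) and Cyp11a1 (53.8 CPM).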

How the results depend on the processing

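No gene passed adjustment between genotypes at 6 somites under any alternative but 2, with 7 genes when low-count genes were kept and 1 with Smchd1matΔ 4 alone. The number at an unadjusted p under 0.05 (786) became 1477 with no filter, 1964 with all 37 embryos in the fit, 196 with libraries thinned to the shallowest, 361 without Smchd1matΔ 1 and 2, 304 without Smchd1matΔ 1 to 3, and 333 with the GC content and length trends removed and Smchd1matΔ 1 and 2 left out, an alternative chosen after seeing the data. Leaving out single embryos gave 397 to 1567, the extremes being without Smchd1wt 2 and without Smchd1matΔ 3. With the replicate block it was 805 (395 higher, 410 lower) and 0 passed adjustment. Deviations of same-numbered embryos from their groups correlated at 0.099, 0.016, -0.129 and 0.022. The labels do not say what the numbers stand for, so whether they pair embryos is unknown.

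The difference between ages passed 3 genes in DESeq2 and 0 to 215 genes without single embryos (1 without Smchd1wt 2, 215 without Smchd1matΔ 4). Its unadjusted count ran from 915 to 2244 without single embryos and was 640 without Smchd1matΔ 1 and 2. In the older embryos, females alone and the replicate block each left 1 gene, and no filter gave 808 at an unadjusted p under 0.05. Somite number passed 287 genes in DESeq2. The stage index difference was -0.378 with 50 genes of each direction, 0.0241 with 200 genes of each direction, 0.0187 without Smchd1matΔ 1 and 2, and -0.177 to 0.0556 without single embryos.

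Over 82 single genes, 1798 values kept their direction and side of the threshold, and 56 reversed. Of the values of gene lists, 30 were counted as moved. That count did not follow the sign of the list median, and more lists changed sign. Without Smchd1matΔ 1 and 2, for example, the median went from -0.10 to 0.07 for Hox paralogues 1 to 9. It went from 0.17 to -0.26 for surface ectoderm and epithelium. With thinned libraries Chchd2 (-0.023), Foxp4 (-0.13), Bnip3l (0.090), Rnf213 (-0.025), Pmp22 (0.39), Peg12 (-0.13), Dll3 (-0.61) and Bmp7 (0.13) reversed. With the block they were Slc25a37 (-0.0047), Prl7a1 (-1.43) and Cyp11a1 (-0.14), and with voom weights Prl7a1 (-2.71) and Cyp11a1 (-1.44). Without Smchd1matΔ 1 and 2 they were Prl7a1 (-6.78), Cyp11a1 (-4.52), Krt7 (-0.59), Hand1 (-0.43), Sfmbt2 (-0.68), Phgdh (-0.0136) and Col1a1 (-0.11). With the trends also removed, the values were -6.52, -4.54, -0.59, -0.42, -0.69, -0.0097 and -0.20, and Ddx3x was at 0.020. Without Smchd1matΔ 1 to 3 they were Prl7a1 (-6.74), Cyp11a1 (-4.40), Krt7 (-0.63), Hand1 (-0.31), Sfmbt2 (-0.72), Hoxc10 (-0.18), Sox2 (-0.059), Lrp2 (-0.11), Gm26917 (-0.033), mt-Cytb (-0.048) and Col1a1 (-0.066). With the trends removed Bax was at -0.060. Without single embryos the ranges were -0.081 to 0.25 for Rnf213, -0.30 to 0.30 for Slc25a37, -2.72 to 0.45 for Prl3d1, -2.59 to 1.09 for Prl7a1, -0.96 to 2.98 for Cyp11a1, -0.34 to 0.032 for Pmp22, -0.21 to 1.52 for Krt7, -1.05 to 0.38 for Sox7, -0.25 to 0.84 for Hand1 and -0.17 to 1.48 for Sfmbt2. The cause was not tested. Smchd1 stayed between -0.69 and -0.44 without single embryos. With 916444 counts in Smchd1matΔ 3, a count of 0 there allows up to 3.27 CPM.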
